A study of Homo sapiens with 6 samples.

Results

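Serpins are a superfamily of proteins named for their serine protease inhibitors, and their transcripts were measured here in NOZ, an established human gallbladder cancer line, and in NOZ-R, its derivative selected for resistance to gemcitabine by raising the dose in steps. Gemcitabine is a deoxycytidine analogue that blocks DNA synthesis. For each line 3 poly-A RNA libraries were sequenced. The labels give no dose, and do not say whether NOZ-R is 1 clone or whether the drug was present at harvest. Members were all genes of the count table whose symbol is SERPIN followed by a clade letter from A to I and a number, with no further suffix, and 35 of the 63140 genes met this rule. Of the 34 described here, 14 had enough counts to be tested and 20 did not.

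Most serpins present a reactive centre loop as bait to a protease. When the protease cuts the loop, the loop inserts into the body of the serpin, and the protease is carried along and trapped as an inactive covalent complex. Clades A, C, D, F and G are mainly secreted plasma proteins made by the liver. Clade B serpins lack a classical signal peptide, are mostly intracellular, and are abundant in epithelia and leukocytes. Clade E holds the inhibitors of plasminogen activators and thrombin, clade I the neuronal and pancreatic serpins, and clade H a collagen chaperone that inhibits no protease.

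Total counts per library lay between 14136037 and 19244923. NOZ replicate 2 stood apart, with a mean chi-square per gene of 11.2 and 9.83 against the other NOZ libraries, which differed from each other by 2.19. Without it, all 11 serpins called below kept their calls, with log2 changes from -1.59 to 5.52, and SERPINB6 was called lower besides. Of 9 markers of biliary epithelium, 8 were tested in the comparison of the lines, with 4 higher (KRT7, KRT8, KRT18 and MUC1), 2 lower (EPCAM and CDH1) and 2 that did not pass (KRT19 and SOX9). KRT7, a keratin of biliary cells, was higher by 1.08 on the log2 scale, and the epithelial adhesion gene EPCAM fell by 0.56. KRT19, another such keratin, was at 926.9 CPM ± 117 in NOZ against 891.0 CPM ± 9.05 in NOZ-R (± SD, n = 3 per line), where CPM is the count relative to the library total scaled by TMM factors. The chloride channel gene CFTR was at 0 in all 6 libraries, and E-cadherin, CDH1, was low in NOZ and fell further, from 1.03 CPM to 0.290 CPM (log2 change -1.83, adjusted p by edgeR = 0.00386). Whether replicates were separate cultures is not stated, so the spread behind each p-value is that of these libraries and may be technical.

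Levels were compared between serpins in FPKM, the authors' fragment count relative to gene length and library total, which correct for length but not for composition. In NOZ, SERPINE2 at 52.8 FPKM ± 0.491 stood above SERPINB5 at 47.2 FPKM ± 0.242, without overlap (± SD, n = 3 per line). Next came SERPINH1 at 24.3 FPKM ± 1.89 and SERPINB1 at 23.3 FPKM ± 0.647, with means closer than their spread (± SD, n = 3 per line). In NOZ-R the order in FPKM turned, with SERPINB5 at 38.3 FPKM ± 1.34 above SERPINE2 at 33.6 FPKM ± 1.35 (± SD, n = 3 per line). By CPM, which is not corrected for length, SERPINE2 stood above SERPINB5 in both lines, at 315.4 CPM against 150.3 CPM in NOZ-R. The other 10 tested serpins described here lay at 11.8 FPKM or lower in both lines. SERPINB6, which is among them, was at 148.6 CPM in NOZ, against 146.0 CPM for SERPINH1.

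The summed level of the 13 clade B members was 86.3 FPKM ± 1.2 in NOZ and 83.9 FPKM ± 1.59 in NOZ-R, while that of the 11 clade A members was 3.18 FPKM ± 0.309 and 10.9 FPKM ± 0.615 (± SD, n = 3 per line). FPKM are not corrected for composition, and scaling by library size alone shifted the median log2 change of all genes by -0.129. The small clade B difference can thus not be read as a fall.

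NOZ-R was compared with NOZ to find the serpins whose transcript level differed in the resistant line. SERPINB2, SERPINI1, SERPINB7, SERPINA1 and SERPINB8 rose, each at least 2-fold by estimate. SERPINF2, SERPINF1, SERPIND1, SERPINE2, SERPINB9 and SERPINB5 fell, of which SERPINF2 alone was estimated to fall at least 2-fold. SERPINB1, SERPINB6 and SERPINH1 did not pass the test. In these bulk libraries, fewer cells with a transcript and less of it per cell cannot be told apart. Thus 5 of these 14 serpins were higher and 6 lower (quasi-likelihood test of edgeR, adjusted after Benjamini and Hochberg over all 14386 genes tested). Among all genes tested 30.4% were higher, 29.8% lower and 60.2% either, against 78.6% of the 14 serpins. By estimate, 8.96% of all genes were higher and 7.57% lower with a change of 2-fold or more. The median log2 fold change was -0.02 for the 14 serpins and -0.01 for all genes, and the median absolute change was 0.96 and 0.39. CPM values of the lines did not overlap for 11 of the 14 serpins, and for 65.3% of all genes tested.

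Passing the filter on low counts took about 0.585 CPM in 3 libraries. SERPINB2 and SERPINI1 reached it in 3 libraries through NOZ-R only. For these 2 members the filter favoured a rise, and the counts above do not describe all members. The 78.6% called and the median absolute change include both. Of the 12 that reached the cutoff in every library, SERPINB7, SERPINA1 and SERPINB8 were higher and the 6 named above lower. SERPINB1, SERPINB6 and SERPINH1 of these 12 were not called. For the gene lists that follow, called members that reached the cutoff through 1 line only are therefore named, and in most lists the others are counted apart. Each count is to be read against the 30.4% of all genes higher and 29.8% lower. These shares are over all genes tested, also those that reached the cutoff through 1 line only, so they are not restricted alike.

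**Figure D1:**
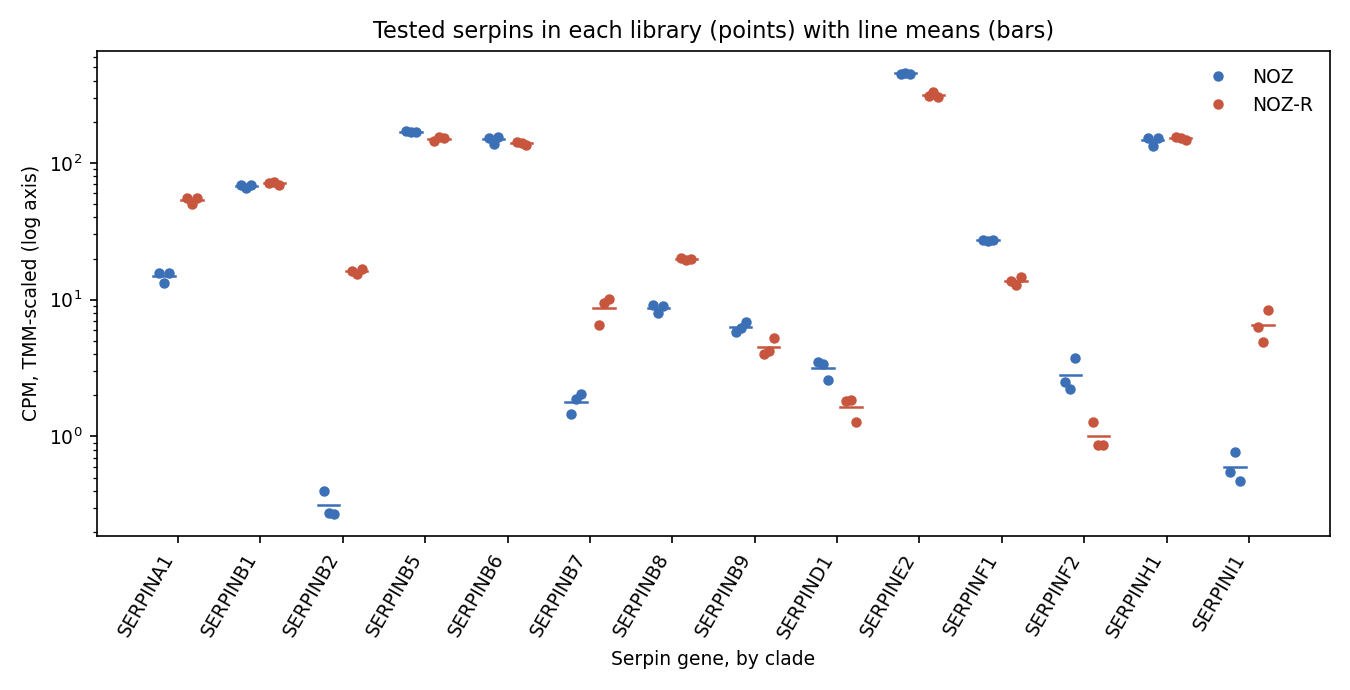
TMM-scaled CPM (vertical log axis) of 14 tested serpins (horizontal axis, by clade) in each NOZ (blue) and NOZ-R (red) library, with bars at the means of 3. SERPINB2 and SERPINI1 show the widest gaps, and points of the lines overlap for SERPINB1, SERPINB6 and SERPINH1.

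Among serpins that act on the plasminogen system, SERPINB2 and SERPINI1 rose and SERPINE2 and SERPINF2 fell. SERPINB2 (chromosome 18, 63871692 to 63903890, plus strand, GRCh38) encodes plasminogen activator inhibitor type 2, a mostly intracellular inhibitor of urokinase. It had 8, 5 and 4 counts in NOZ and 294, 249 and 251 counts in NOZ-R, or 0.399, 0.277 and 0.271 CPM against 16.3, 15.4 and 16.8 CPM. Every NOZ-R library was far above every NOZ library. The log2 fold change was 5.62 (SE 0.194, adjusted p by edgeR = 3.33e-11), and summed counts differed 50.2-fold (95% interval for counting error 31.2 to 86.7). Of the exon bases of SERPINB2, 19.9% are shared with SERPINB10 on the same strand. SERPINB10 itself had 1 count over NOZ and 3 over NOZ-R.

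SERPINI1 (chromosome 3, 167735243 to 167825568, plus strand) encodes neuroserpin, an inhibitor of tissue plasminogen activator known from neurons. Its counts were 11, 14 and 7 in NOZ and 115, 79 and 126 in NOZ-R, or 0.549, 0.776 and 0.474 CPM against 6.36, 4.89 and 8.45 CPM. The NOZ-R libraries varied among themselves, yet the lowest of them stood well above the highest NOZ library. Its log2 fold change was 3.42 (SE 0.282, adjusted p by edgeR = 2.10e-07). The pancreatic member of the clade, SERPINI2, was at 0 in all 6 libraries.

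SERPINE2 (chromosome 2, 223975112 to 224039319, minus strand) encodes protease nexin-1, a cell-surface inhibitor of thrombin, urokinase and plasmin. It fell, from 450.7, 456.3 and 450.8 CPM in NOZ to 310.9, 330.1 and 305.2 CPM in NOZ-R. The lines did not overlap, and the log2 fold change was -0.52 (SE 0.0505, adjusted p by edgeR = 1.02e-06). SERPINF2 (chromosome 17, 1742836 to 1755268, plus strand) encodes alpha-2-antiplasmin, the main plasma inhibitor of plasmin. It fell from 2.50, 2.22 and 3.72 CPM to 1.27, 0.867 and 0.872 CPM. All NOZ-R libraries were lower than all NOZ libraries, by a log2 fold change of -1.45 (SE 0.291, adjusted p by edgeR = 0.000725). SERPINE3, a clade E member of little-known function, had 3, 5 and 7 counts in NOZ against 2, 4 and 8 in NOZ-R. Of its exon bases, 30.3% overlap INTS6 on the opposite strand, and the strand setting of the counting is not given in the sources used here.

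The proteases and receptors that these serpins act on were measured beside them. PLAT, which encodes tissue plasminogen activator, rose from 411.6 CPM ± 18.4 to 1104 CPM ± 23.4 (± SD, n = 3 per line), a log2 fold change of 1.42 (SE 0.0503, adjusted p by edgeR = 4.28e-11). The urokinase receptor PLAUR rose by 0.82 (SE 0.0616, adjusted p by edgeR = 8.12e-08). Urokinase itself, PLAU, changed by 0.16, from 72.6 CPM ± 1.21 to 81.2 CPM ± 2.20 (± SD, n = 3 per line, adjusted p by edgeR = 0.0318). MRC2, a collagen receptor found with the urokinase receptor at the cell surface, rose by 1.75, and the sorting receptor SORL1 rose by 2.22 from 0.700 CPM. Of the 14 tested genes among 20 partners of plasminogen activation, 11 were higher and 0 lower. Leaving out SORL1, which reached the cutoff through NOZ-R only, 10 of 13 were higher with a median log2 fold change of 0.36. Over all genes tested, not restricted to those at the cutoff in every library, 30.4% were higher and the median was -0.01. Plasminogen, PLG, was at 0 in all 6 libraries.

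**Figure D2:**
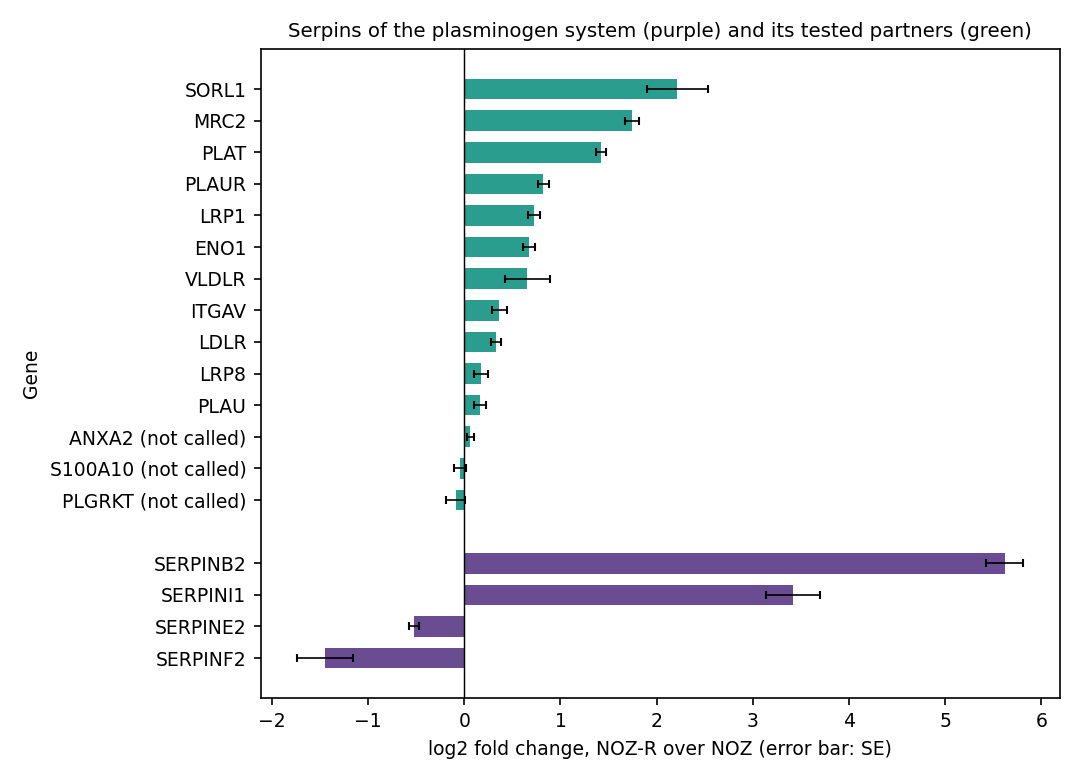
Log2 fold change of NOZ-R over NOZ (horizontal axis, bars with SE) for 4 serpins of the plasminogen system (purple) and its 14 tested partners (green). Among these serpins 2 rose and 2 fell, from 5.62 for SERPINB2 to -1.45 for SERPINF2, and among the partners 11 rose.

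Clade B held 7 tested members, of which 3 rose, 2 fell and 2 did not pass. The 3 that rose, SERPINB7, SERPINB2 and SERPINB8, lie at 1 end of the cluster of 10 clade B genes on chromosome 18 (63476761 to 64019779). SERPINB5 at the other end fell slightly, and the 6 other members of the cluster had at most 3 counts in any library. The median of the 180 tested genes on chromosome 18 was 0.17. SERPINB7 (63752935 to 63805376, plus strand) encodes megsin, an inhibitor found in skin and kidney. It measured 1.45, 1.88 and 2.03 CPM in NOZ against 6.58, 9.54 and 10.2 CPM in NOZ-R, with no overlap. The log2 fold change of SERPINB7 was 2.30 (SE 0.213, adjusted p by edgeR = 6.44e-07).

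SERPINB8 (63969925 to 64019779, plus strand), an inhibitor of furin and trypsin-like proteases, went from 9.14, 7.98 and 9.01 CPM to 20.1, 19.4 and 19.8 CPM. The NOZ-R libraries were close to each other and all above NOZ, with a log2 fold change of 1.19 (SE 0.101, adjusted p by edgeR = 2.84e-07). The neighbouring gene HMSD shares 6.3% of the exon bases of SERPINB8 on the same strand and had 9, 16 and 7 counts in NOZ against 12, 5 and 0 in NOZ-R. SERPINB5 (63476761 to 63505085, plus strand) encodes maspin, an epithelial serpin that does not inhibit proteases in the usual way. It was at 169.9, 169.7 and 168.3 CPM in NOZ against 143.6, 154.4 and 152.9 CPM in NOZ-R. The lines did not overlap, but the log2 fold change was only -0.17 (SE 0.0550, adjusted p by edgeR = 0.0151). Without NOZ replicate 1 or NOZ-R replicate 1 the fall in SERPINB5 no longer passed (adjusted p = 0.0525 and 0.0966).

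SERPINB3 and SERPINB4, the squamous cell carcinoma antigens, had 2 counts over all libraries and none. SERPINB13, an inhibitor of cathepsins in squamous epithelium, was at 0 throughout, and SERPINB12 had 2, 1 and 0 counts in NOZ and none in NOZ-R. SERPINB11 had 3, 0 and 1 counts in NOZ-R and none in NOZ. SERPINB3 and SERPINB11 overlap on opposite strands over 34.9% of the exon bases of SERPINB3, so single counts cannot be assigned with certainty. Among 9 markers of stratified squamous epithelium, 4 were tested and 3 rose. Of these 3, KRT5 and TP63 reached the cutoff through NOZ-R only, so that the filter favoured a rise. The summed level of all 9 was 10.9 to 16.7 CPM in NOZ and 89.7 to 91.2 CPM in NOZ-R. KRT14, a basal keratin with near-identical relatives, made up most of that level, at 72.7 CPM ± 0.532 in NOZ-R (SD, n = 3). KRT1, IVL and SPRR3 were at 0 in all libraries. The part of this marker group in the rise of SERPINB7, SERPINB2 and SERPINB8 was not tested.

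**Figure D3:**
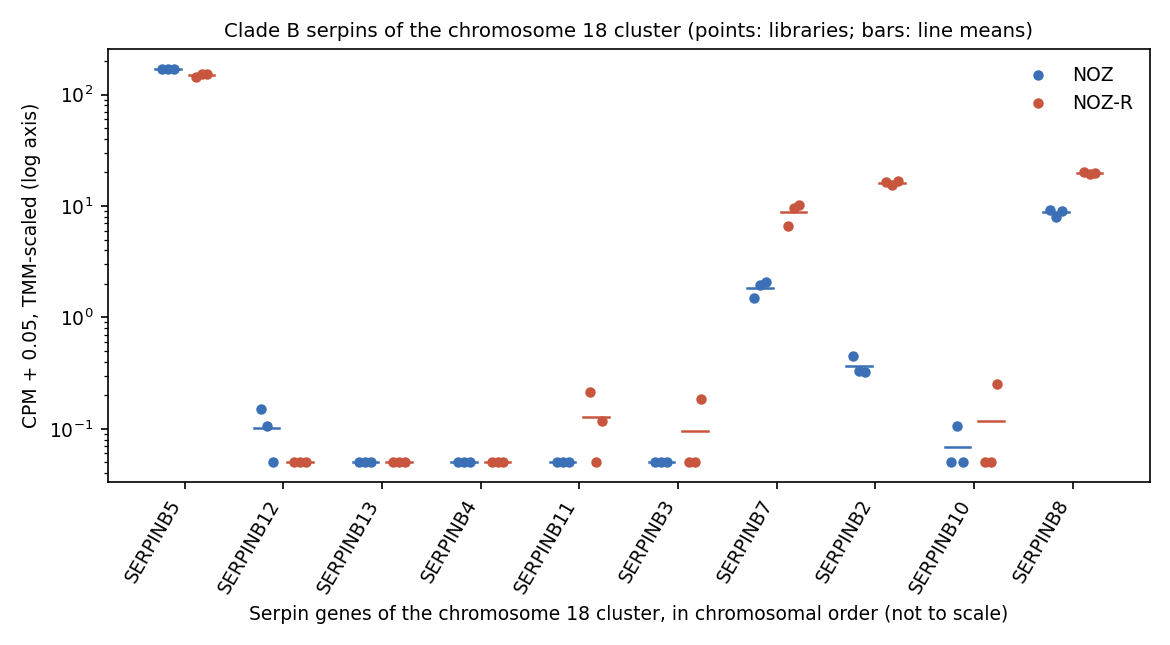
CPM plus 0.05 (vertical log axis) of the 10 serpin genes of the chromosome 18 cluster (horizontal axis, chromosomal order, not to scale) in each NOZ (blue) and NOZ-R (red) library. SERPINB7, SERPINB2 and SERPINB8 are higher in all 3 NOZ-R libraries, SERPINB5 is slightly lower, and the other 6 lie near the floor of the axis.

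Sequence upstream of the genes that rose together on chromosome 18 is shown here to give the regulatory context of this cluster. RefSeq's promoter table (GRCh38.p14) had 41 entries for 27 of the 34 serpins, among them the 5 that rose. The 250 bases before each start were searched on both strands for the AP-1 motif TGANTCA, the binding site of the FOS and JUN factors, whose matches can share bases with those of other motifs. SERPINB7, SERPINB2 and SERPINB8 each had at least 1 match, and so did SERPINB5, which fell, and SERPINB12 and SERPINB13 of the same cluster, which were at or near 0 counts. In all, 9 of the 41 serpin windows held the motif, and 6.57% of all 35116 promoter windows of that length. SERPINB7 has 3 listed starts, so more bases were searched for it. Stretches free of annotated exons follow 5′ to 3′ on the plus strand, with AP-1 matches in capitals. They are chr18:63775168-63775374 and chr18:63777531-63777776 for the second and the third start of SERPINB7 and chr18:63887455-63887699 for SERPINB2.
SERPINB7, the second start: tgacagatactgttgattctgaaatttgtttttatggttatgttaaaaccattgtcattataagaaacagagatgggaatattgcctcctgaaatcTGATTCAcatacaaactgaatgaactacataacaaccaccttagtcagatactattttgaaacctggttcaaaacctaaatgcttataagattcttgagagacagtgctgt
SERPINB7, the third start: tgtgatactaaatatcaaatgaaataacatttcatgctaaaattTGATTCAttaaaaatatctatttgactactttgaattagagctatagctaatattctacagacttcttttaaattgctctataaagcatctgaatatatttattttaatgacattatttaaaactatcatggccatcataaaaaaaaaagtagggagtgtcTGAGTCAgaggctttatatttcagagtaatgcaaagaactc
SERPINB2: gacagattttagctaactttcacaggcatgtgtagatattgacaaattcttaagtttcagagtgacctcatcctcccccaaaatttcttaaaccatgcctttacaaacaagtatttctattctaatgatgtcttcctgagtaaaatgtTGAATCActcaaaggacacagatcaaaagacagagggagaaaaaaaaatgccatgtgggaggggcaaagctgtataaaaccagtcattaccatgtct

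The match in SERPINB2 begins 102 bases before the start, and that nearest the third start of SERPINB7 begins 45 bases before it. The second start of SERPINB7 has a further match 39 bases before it, in annotated exon bases left out of the printed stretch. SERPINB8 had matches 185 and 28 bases before its start, in a window that lies within annotated exons and is not printed. Of the serpins with an entry, 3 of the 5 that rose, 1 of 4 that fell (SERPINB5) and none of 3 that did not pass had a match. Of the untested serpins, 4 had one, SERPINB12, SERPINB13, SERPINI2 and SERPINE3. Matches were thus not limited to the serpins that rose. The gamma-activated site, searched as TTCNNNGAA, occurred in 8 of the 41 and in 6.57% of all windows. In all 6 motifs were searched, and AP-1 is described in full because of its matches in this cluster, a choice made after they were seen. A match is a description of these letters, and several windows of 1 gene overlap.

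Of the 3 clade B members on chromosome 6, 1 passed the test. SERPINB1 (2832332 to 2842006, minus strand), an inhibitor of neutrophil elastase and cathepsin G, measured 69.4, 65.6 and 68.9 CPM in NOZ against 71.9, 73.0 and 68.7 CPM in NOZ-R. The lines overlapped, and the log2 fold change was 0.07 (SE 0.0625, adjusted p by edgeR = 0.372). SERPINB6 (2948159 to 2972165, minus strand), an intracellular inhibitor of cathepsin G, was at 152.9, 138.7 and 154.1 CPM in NOZ against 141.4, 140.2 and 136.0 CPM in NOZ-R. The lines overlapped through NOZ replicate 2, and the log2 difference of -0.09 missed the threshold (adjusted p by edgeR = 0.195), which it passed without that replicate (-0.14, adjusted p by edgeR = 0.0135). SERPINB9 (2887266 to 2903280, minus strand), the inhibitor of granzyme B, was lower, at 5.84, 6.26 and 6.91 CPM in NOZ against 4.04, 4.21 and 5.23 CPM in NOZ-R. Its log2 fold change was -0.50 (SE 0.156, adjusted p by edgeR = 0.0140), a call lost without NOZ replicate 3, NOZ-R replicate 1 or NOZ-R replicate 2 (adjusted p = 0.0519, 0.0636 and 0.0527) and by DESeq2 (adjusted p = 0.0785). The median of chromosome 6 was 0.36, and with that median as an offset SERPINB1, SERPINB6 and SERPINB9 were all lower, at -0.29, -0.45 and -0.85 (adjusted p by edgeR = 0.00137, 2.49e-05 and 0.000390).

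Leukocyte serine proteases, the targets of SERPINB1, SERPINB6 and SERPINB9, were barely detected. None of 12 listed genes had enough counts to be tested, 7 were at 0 in all libraries, and their summed level was at most 0.372 CPM in any library. Of 12 cysteine cathepsins and legumain, 10 were tested, with 5 higher and 2 lower, so that 7 of 10 were called, against 60.2% of all genes. Leaving out CTSO, which reached the cutoff through NOZ-R only, 4 of 9 were higher and 2 lower, with a median log2 fold change of 0.28. CTSO went from 0.529 CPM to 8.50 CPM, and CTSC, the activator of leukocyte serine proteases, fell by 0.58 on the log2 scale. CTSV, a relative of cathepsin L, fell by 0.47 on the log2 scale (adjusted p by edgeR = 0.0364).

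Of the 11 clade A members, SERPINA1 alone had enough counts to be tested. SERPINA1 (chromosome 14, 94376747 to 94390693, minus strand) encodes alpha-1-antitrypsin, the plasma inhibitor of neutrophil elastase. It rose from 15.7, 13.2 and 15.6 CPM in NOZ to 55.1, 50.4 and 55.2 CPM in NOZ-R. All NOZ-R libraries lay above all NOZ libraries, and the rise was 3.60-fold, a log2 fold change of 1.85 (SE 0.0890, adjusted p by edgeR = 9.29e-10). The median of chromosome 14 was -0.17.

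The neighbours of SERPINA1 in the cluster of 10 clade A genes on chromosome 14 (94280455 to 94624055) were at or near 0. SERPINA6, which encodes the cortisol-binding globulin of plasma, had 0 counts in NOZ against 14, 5 and 12 in NOZ-R. Against a floor of 3 counts over the NOZ group, SERPINA6 was 11.1-fold higher in NOZ-R. That floor allows for counting error in NOZ but not in NOZ-R, so the value is no lower bound. SERPINA5, the protein C inhibitor, had 1, 0 and 0 counts in NOZ against 9, 7 and 4 in NOZ-R, or 21.5-fold by summed counts (95% interval for counting error 3.44 to 891). SERPINA5 shares 1.4% of its exon bases with SERPINA4 and 2.1% with another gene model. Without the filter, and by DESeq2, both passed (SERPINA6 adjusted p by edgeR = 1.18e-06 and DESeq2 adjusted p = 0.000231, SERPINA5 adjusted p by edgeR = 0.00237 and DESeq2 adjusted p = 0.0162). The edgeR values without the filter are not comparable with those of the main fit. At the same counts, adjusted p by edgeR went from 3.33e-11 to 3.82e-126 for SERPINB2 and from 0.0151 to 0.0254 for SERPINB5. SERPINA3, the acute phase inhibitor alpha-1-antichymotrypsin, was at 0 in all 6 libraries, as were SERPINA2, SERPINA4, SERPINA7 and SERPINA11. SERPINA9, SERPINA10 and SERPINA12 had at most 4 counts in any library.

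SERPINA1 and SERPINA3 are known acute phase genes of the liver, and other such genes were measured beside them. Of 21 listed, 4 had enough counts to be tested. SAA1, SAA2 and LCN2 reached the cutoff through NOZ-R only, so that the filter favoured a rise, which leaves C3 as the 1 member tested on both lines. The summed level of the list was 2.10 to 2.95 CPM in NOZ and 232 to 243 CPM in NOZ-R. The complement component C3 rose from 1.39 CPM ± 0.492 to 220.6 CPM ± 6.78 (± SD, n = 3 per line). Among 10 hepatocyte markers, 2 were tested and neither passed, with a summed level of 27.4 to 30.2 CPM in NOZ and 23.7 to 31.1 CPM in NOZ-R, nearly all from CPS1. APOB and FGB were at 0 in all libraries, and albumin, ALB, had at most 2 counts in any. Of 8 leukocyte markers, 3 were tested, and the 2 that rose, LYZ and CSF1R, reached the cutoff through NOZ-R only. The summed level of all 8 was 3.71 to 6.39 CPM in NOZ and 6.50 to 7.25 CPM in NOZ-R. Of 5 endothelial markers, only PECAM1 was tested, and it rose from a mean of 1.87 CPM to 9.21 CPM. The summed level of all 5 was 2.57 to 3.30 CPM in NOZ and 9.18 to 10.2 CPM in NOZ-R. In NOZ-R nearly all of that sum came from PECAM1. Mean levels of the untested CDH5 and TEK were lower in NOZ-R, at 0.401 CPM against 0.545 CPM and 0.0592 CPM against 0.337 CPM. VWF and KDR lay near 0 in both lines. The part of these marker groups in the serpin changes was not tested.

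The serpins of coagulation were low. SERPIND1 (chromosome 22, 20773879 to 20787720, plus strand) encodes heparin cofactor II, an inhibitor of thrombin. It fell from 3.49, 3.38 and 2.57 CPM in NOZ to 1.82, 1.86 and 1.27 CPM in NOZ-R, without overlap (log2 change -0.93, SE 0.231, adjusted p by edgeR = 0.00332). SERPIND1 lies within PI4KA on the opposite strand and shares no exon bases with it, and PI4KA itself was at a log2 difference of 0.37. Antithrombin, SERPINC1, had 1, 1 and 0 counts in NOZ against 3, 3 and 1 in NOZ-R, or 3.76-fold by summed counts (95% interval for counting error 0.717 to 37.1). SERPINA10, the inhibitor of factor Xa that acts with protein Z, had 1 count in each line.

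Of 23 coagulation proteases, cofactors and thrombin receptors, 10 were tested, with 5 higher and 1 lower, so that 6 of 10 were called, against 60.2% of all genes. Leaving out F2RL2, which reached the cutoff through NOZ-R only, 4 of 9 were higher and the median log2 fold change was 0.03. Tissue factor, F3, rose from 143.7 CPM ± 14.2 to 356.1 CPM ± 5.83 (± SD, n = 3 per line), and thrombomodulin, THBD, rose by 1.47 on the log2 scale. TFPI, the Kunitz-type inhibitor of tissue factor and so an inhibitor outside the serpin family, fell from 181.8 CPM ± 19.7 to 90.5 CPM ± 4.61 (± SD, n = 3 per line). F2RL2, a thrombin receptor, had 1, 0 and 0 counts in NOZ against 29, 33 and 37 in NOZ-R.

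SERPINF1 (chromosome 17, 1761959 to 1777574, plus strand) encodes pigment epithelium-derived factor, a secreted anti-angiogenic serpin that does not inhibit proteases, and it lies next to SERPINF2. It measured 27.5, 26.7 and 27.3 CPM in NOZ against 13.7, 12.8 and 14.7 CPM in NOZ-R. The lines were well separated, with a log2 fold change of -0.99 (SE 0.0882, adjusted p by edgeR = 4.62e-07). Both clade F genes were thus lower, while the median of chromosome 17 was 0.08. SERPING1, the C1 inhibitor of the complement and contact systems, had 2, 0 and 0 counts in NOZ against 8, 3 and 3 in NOZ-R, or 7.53-fold by summed counts (95% interval for counting error 1.73 to 68.2). It did not pass without the filter (adjusted p by edgeR = 0.0653) or by DESeq2 (adjusted p = 0.138). Its target proteases C1S and C1R rose by 2.95 and 0.97 on the log2 scale, from 0.265 CPM and 1.33 CPM, and C1S reached the cutoff through NOZ-R only. Of 15 listed genes of the complement C1 and lectin pathway, 4 were tested. Leaving out C1S, C1R was higher, C1RL lower and MASP2 not called, against 30.4% higher and 29.8% lower over all genes.

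SERPINH1 (chromosome 11, 75562056 to 75572783, plus strand) encodes HSP47, the chaperone of procollagen in the endoplasmic reticulum. It was at 152.0, 132.6 and 153.4 CPM in NOZ against 155.2, 153.0 and 147.7 CPM in NOZ-R. The lines overlapped, and its log2 fold change of 0.06 ± 0.0653 did not pass (SE, adjusted p by edgeR = 0.457). Its partners in collagen folding and modification were higher at 14 of 19 tested, all at the cutoff in every library, with 2 lower and a median log2 fold change of 0.38. These are 73.7% higher and 10.5% lower, against 30.4% and 29.8% of all genes. PLOD2, a lysyl hydroxylase, rose from 3.41 CPM ± 0.594 to 240.2 CPM ± 17.2 (± SD, n = 3 per line), P4HA2, a prolyl hydroxylase, by 0.98 on the log2 scale, and PLOD1 by 0.96. CRTAP, a subunit of the prolyl 3-hydroxylase complex, fell by 0.39 on the log2 scale, and TMEM38B, an ion channel of the endoplasmic reticulum, fell by 0.52. Of 10 fibroblast markers, 5 were tested, and the 3 that rose, COL3A1, FAP and POSTN, reached the cutoff through NOZ-R only. The summed level of all 10 was 3.15 to 3.72 CPM in NOZ and 11.6 to 12.8 CPM in NOZ-R. COL1A2 and THY1, 2 of these markers, had at most 3 counts and 1 count in any library.

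Protease inhibitors of other families were set beside the serpins. Of 39 listed, 18 were tested, with 13 higher, 4 lower and 1 that did not pass. TIMP3, CSTA and SLPI reached the cutoff through NOZ-R only and SPINK5 through NOZ only. Of the other 14, 10 were higher and 3 lower, with a median log2 fold change of 0.47, against 30.4% higher, 29.8% lower and a median of -0.01 over all genes. TIMP3, an inhibitor of metalloproteinases, rose from 0.148 CPM ± 0.165 to 12.5 CPM ± 1.04, the cysteine protease inhibitor CSTA from 0.284 CPM ± 0.0430 to 6.02 CPM ± 1.07, and the elastase inhibitor SLPI from 0.140 CPM ± 0.136 to 2.07 CPM ± 0.404 (± SD, n = 3 per line). The calpain inhibitor CAST and TIMP2 fell by 0.34 and 0.32 on the log2 scale, and WFDC3 fell by 0.90. Of 25 kallikreins and membrane-bound trypsin-like proteases, 10 were tested, with 3 higher and 3 lower, against 30.4% higher and 29.8% lower over all genes. TMPRSS3 and PRSS1, 2 of the higher genes, and KLK6, which was not called, reached the cutoff through NOZ-R only. Of the other 7 tested, 1 was higher and 3 lower, with a median log2 fold change of -0.17. Among the 25 listed, 8 genes were at 0 in all libraries. PRSS23 fell by 0.46 on the log2 scale from 428.3 CPM ± 15.7 (SD, n = 3). The trypsinogen genes PRSS3, which fell by 0.82 on the log2 scale, and PRSS2, which rose by 1.95, resemble each other closely, so their counts are uncertain.

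**Figure D4:**
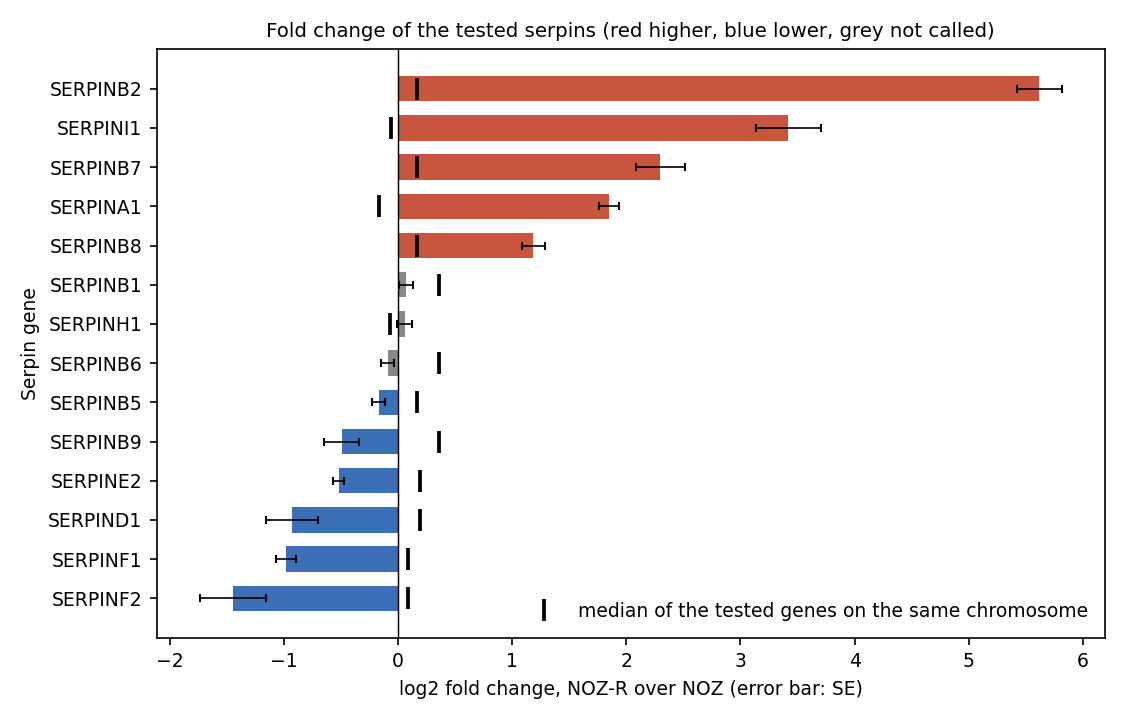
Log2 fold change of NOZ-R over NOZ (horizontal axis, bars with SE) for 14 tested serpins (vertical axis), with a black tick at the median of the tested genes on the same chromosome. Changes run from -1.45 (SERPINF2) to 5.62 (SERPINB2), and the chromosome medians of these genes lie between -0.17 and 0.36.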

How the data were processed

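RNA-seq counts of 3 NOZ and 3 NOZ-R libraries were analysed, grouped by title. The authors deposited whole-number counts per gene, not normalized, and FPKM per gene. The submitters' processing notes name fastp 0.22.0 and genome build GRCh38. No aligner, counter, strand setting or annotation release is given in the sources used here. Genes were filtered with filterByExpr, scaled with TMM factors (0.954 to 1.05) and compared with edgeR 4.0.16 in R 4.3.3 (quasi-likelihood test, Benjamini-Hochberg adjustment over all 14386 genes tested, threshold 0.05). The SE is the log2 fold change divided by the square root of F. Positions, strands and shared exons came from GENCODE release 29 of GRCh38, matched by symbol for all 34 serpins, and promoter windows from RefSeq. The authors' own release may be another.

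Counting intervals are exact binomial intervals on summed counts at 95%, and like the floor of 3 counts they cover counting error only. Replicate pairs differed by more than sampling noise (mean chi-square per gene 2.19 to 11.2, with the 2 highest values in pairs that hold NOZ replicate 2), so no library was a copy of another in its line. All 6 libraries were kept, and calls without NOZ replicate 2 are given above. Counts were simulated for the comparison of the lines, with 200 of 14386 genes changed. Of log2 changes of 1, 85.9% were recovered, of changes of 2, 99.6%, and 7.65% of calls were false. In the data 60.2% of genes were called, far more than were changed in the simulation, so these rates need not hold there.

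Full values were given for serpins past the test with an estimated change of at least 2-fold and for the 5 of highest mean FPKM. Per partner list, up to 3 increases and 3 decreases with a mean of at least 1 CPM were eligible, besides PLAU, PLAUR and PLAT. Other genes were named after their values were seen. One member and 1 marker gene stayed in the fit but are not reported here, and counts, medians and figures leave them out. Members and lists were chosen with earlier results of these data known. Alternatives were DESeq2 1.42.0 (size factors, Wald test), other scalings and filters, limma 3.58.1 on log2(FPKM + 1) and log2(FPKM + 0.1), a replicate block, stricter thresholds, chromosome medians as offsets, and leaving out each library.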

Additional observations from a re-analysis of the deposited data

How the results depend on the processing

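The count of higher serpins stayed between 4 and 7 over 18 alternatives and the count of lower serpins between 4 and 8, except in edgeR's test against a 2-fold change, which called 0 lower (1 at an unadjusted p under 0.05) and 4 higher. Leaving out each library gave 5 to 6 higher and 4 to 7 lower. SERPINA1, SERPINB2, SERPINB7 and SERPINI1 passed in all 18. Their log2 changes shrank on the log2(FPKM + 1) scale, to 2.56 for SERPINB2, 1.59 for SERPINI1 and 1.28 for SERPINB7, since the pseudocount weighs on low values. With library size as the only scaling, the median of all genes shifted by -0.129. Direction turned for 2 uncalled genes. SERPINB1 was at -0.0620 by library size, -0.0597 on log2(FPKM + 1), -0.0620 on log2(FPKM + 0.1) and -0.291 with the chromosome median as an offset. SERPINH1 was at -0.0705 by library size, -0.0655 on log2(FPKM + 1), -0.0679 on log2(FPKM + 0.1) and -0.00652 without NOZ replicate 2. SERPINB6 was called lower by library size alone, on both FPKM scales, with the chromosome offset and without NOZ replicate 2.

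Deviations of same-numbered libraries of the lines correlated at 0.103, -0.0299 and -0.0662, and not every library correlated best with its own number. These values show no pairing by number, but with so few libraries they cannot exclude it. With the replicate number as a block 5 serpins were higher and 6 lower, and no call changed. For the 12 untested serpins with counts, depth limits what could be detected, and for the 8 at 0 the floor was 0.0568 CPM over NOZ and 0.0610 CPM over NOZ-R.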

Other observations

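The serpin pseudogenes left out by the member rule included 1 with enough counts to be tested. SERPINB9P1, a transcribed relative beside SERPINB9 on chromosome 6, gave 33, 22 and 39 counts in NOZ against 12, 20 and 1 in NOZ-R (log2 change -1.42, adjusted p by edgeR = 0.0281).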
